A study of Homo sapiens with 4 samples.

Results

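The genes described here encode protein kinases of mitosis, namely PLK1, PLK4, AURKA, AURKB, BUB1, BUB1B, TTK, NEK2, MELK and PBK. They were chosen by gene symbol, and all 10 genes had a named transcript cluster, the unit in which the array reports a gene, among the 14884 genes of the table. Each of the 10 had 1 cluster. Human colorectal carcinoma (HCT116) and hepatocellular carcinoma (HepG2) cells, both established lines, received MP-HX, a hexane extract of Melicope ptelefolia leaves, or DMSO as the vehicle, for 24 h. HCT116 received 60 µg/mL of MP-HX while HepG2 received 78 µg/mL, each near the IC50 of its line, so that cell line and dose cannot be told apart. The vehicle was labelled as 0.3% DMSO for HCT116 and as 0.39% for HepG2, whereas the methods of the study give a single concentration. RNA of 3 cultures was pooled for each group and hybridised to 1 array, which left 4 arrays and no replicates.

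Mitotic kinases drive the steps by which a cell separates its copied chromosomes. Polo-like kinase PLK1 acts at centrosomes, kinetochores and the midbody, and its relative PLK4 starts the duplication of centrioles. Aurora A (AURKA) matures centrosomes and builds the spindle, while Aurora B (AURKB), the kinase of the chromosomal passenger complex, corrects wrong attachments of chromosomes and acts in cytokinesis. BUB1, the BUB1-related BUB1B (BUBR1) and TTK (MPS1) run the spindle assembly checkpoint, which delays anaphase until all chromosomes are attached. NEK2 separates centrosomes, and MELK and PBK (TOPK) are kinases that dividing cells and many tumours express. In proliferating cells the transcripts of these genes are known to peak in G2 and mitosis, so in pooled cells fewer cells in those phases and less RNA per cell cannot be told apart.

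Genes of this phase often carry a cell cycle genes homology region (CHR), to which MuvB complexes with B-MYB or the RB-related pocket proteins bind, and CCAAT boxes, to which NF-Y binds. The promoter windows of RefSeq on GRCh38.p14, from 250 bases before to 50 bases after a transcript start, covered PLK1, PLK4, AURKB, BUB1, BUB1B, NEK2 and MELK, which is 7 of the 10 genes, in 10 windows. AURKA, TTK and PBK had no entry. The motifs were searched on both strands, the CHR as TTTGAA or TTTAAA and the CCAAT box as CCAAT. Below are the 160 bases before a transcript start of 5 genes, 5′ to 3′ in the direction of transcription, with CHR and CCAAT letters on either strand in capitals. PLK1 and BUB1B are shown for a CHR close to the start, BUB1 and NEK2 for a pair of CCAAT boxes, and AURKB for a single one. The AURKB start lies inside the RefSeq gene and not at its outer end, unlike those of the other 4 genes.
PLK1: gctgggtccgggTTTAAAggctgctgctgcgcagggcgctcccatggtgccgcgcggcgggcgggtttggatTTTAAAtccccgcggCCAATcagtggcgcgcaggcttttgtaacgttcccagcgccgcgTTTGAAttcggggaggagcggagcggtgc
BUB1B: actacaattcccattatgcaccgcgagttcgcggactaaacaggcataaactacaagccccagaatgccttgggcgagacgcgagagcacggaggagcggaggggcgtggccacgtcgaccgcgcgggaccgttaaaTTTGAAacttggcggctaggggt
BUB1: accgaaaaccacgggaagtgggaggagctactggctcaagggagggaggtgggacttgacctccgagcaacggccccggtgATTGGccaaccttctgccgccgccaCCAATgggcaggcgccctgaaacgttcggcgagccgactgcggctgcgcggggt
NEK2: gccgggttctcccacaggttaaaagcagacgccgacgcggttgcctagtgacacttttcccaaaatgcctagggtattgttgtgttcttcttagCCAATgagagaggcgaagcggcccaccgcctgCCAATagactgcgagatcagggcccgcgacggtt
AURKB: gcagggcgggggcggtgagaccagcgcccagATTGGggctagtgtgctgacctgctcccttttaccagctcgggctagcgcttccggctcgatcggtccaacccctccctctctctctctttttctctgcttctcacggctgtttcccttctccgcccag
The PLK1 stretch lies on the plus strand at chr16:23678729-23678888, that of BUB1B on the plus strand at chr15:40160909-40161068, and that of BUB1 on the minus strand at chr2:110678064-110678223. The NEK2 stretch lies on the minus strand at chr1:211675622-211675781, and that of AURKB, from 1 of its 2 overlapping windows, on the minus strand at chr17:8210250-8210409. In PLK1 the CHR letters TTTGAA began 29 bases before the start and followed a CCAAT box at 73 bases, and TTTAAA occurred further upstream, at 88 and 148 bases. In BUB1B TTTGAA began 23 bases before the start. BUB1 had CCAAT letters 79 and 54 bases before the start, the former on the opposite strand, and NEK2 had them at 66 and 34 bases.

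CHR letters were found in 3 of the 10 windows, against 24.0% of all 35116 promoter windows of this length. CCAAT letters were found in 6 of the 10, against 34.6% of all windows. The third PLK4 window held a CCAAT box 86 bases before its start, and the first held CHR letters 38 bases after it. The E2F letters searched, TTTGGCGC, TTTCGCGC, TTTCCCGC and TTTGCCGC, were found in 0 of the 10 windows and in 3.31% of all windows. GGCGG, searched as the core of a cell cycle dependent element, was found in 10 of the 10 windows but also in 59.0% of all windows. The 2 AURKB windows overlap and the PLK4 windows belong to 1 gene, so the windows are not independent. A match describes the letters, and binding was not measured.

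**Figure D1:**
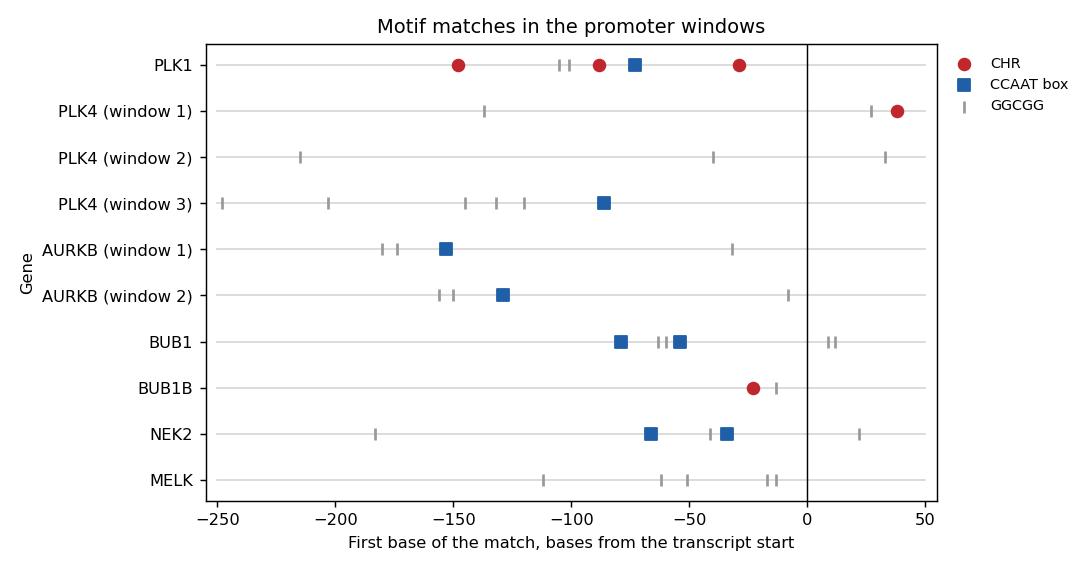
Matches to 3 motifs (red circles for the CHR, blue squares for the CCAAT box, grey ticks for GGCGG) in the 10 promoter windows of 7 mitotic kinase genes, by the position of the first base in bases from the transcript start (vertical line at 0). The CHR matches of PLK1 and BUB1B nearest the start lie at 29 and 23 bases before it, and the CCAAT matches of BUB1 and NEK2 between 79 and 34 bases before it.

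The labels of the lines were checked with tissue markers. The 10 hepatocyte genes measured had a median log2 signal of 3.60 on both HCT116 arrays, and of 12.18 (MP-HX) and 12.38 (vehicle) in HepG2. The 8 colon epithelium genes measured had medians of 5.64 on both HCT116 arrays and of 4.56 (MP-HX) and 4.72 (vehicle) in HepG2. Of these colon genes, KRT20 and CEACAM5 lay below the array median on both HCT116 arrays, and VIL1 (villin) went against the label, at a log2 signal of 4.79 (MP-HX) and 4.75 (vehicle) in HCT116 and of 9.25 and 9.87 in HepG2. Of 3 blood cell genes, CD14 lay below the array median in HCT116 and above it in HepG2, and LYZ (lysozyme) had 4.07 and 3.99 in HCT116 but 11.84 and 12.18 in HepG2. CD68, a lysosomal glycoprotein of macrophages that other cells also express, had a log2 difference of 2.61 with MP-HX in HCT116 and of 1.06 in HepG2, and its part in the results was not tested. All 3 fibroblast and endothelium genes measured lay below the array median on all 4 arrays. The median log2 signal of all clusters was 4.33 (MP-HX) and 4.31 (vehicle) for HCT116, and 3.97 (MP-HX) and 4.03 (vehicle) for HepG2. Differences in level between the lines therefore depend on the scale, and are given as deposited unless stated.

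All 10 kinase genes had a lower signal with MP-HX than with vehicle in both lines, where 47.2% of the clusters with a gene symbol were lower in HCT116, 49.6% in HepG2 and 27.7% in both. At the 2-fold threshold of the study, which is a log2 difference of 1, 10 of 10 were lower in HCT116, where 2.91% of the 16098 clusters with a gene symbol were. In HepG2 8 of 10 were lower by this threshold, against 2.16% of clusters, and all 8 were also among the 10 of HCT116, where 0.932% of clusters were lower in both lines. The median log2 difference of the 10 genes was -1.58 in HCT116 and -1.24 in HepG2, while the median over all named clusters was 0 in both. All 10 lay above the array median on all 4 arrays. They also lay above the upper quartile of all clusters, except NEK2 with MP-HX in HepG2, at a log2 signal of 5.69 beside 5.80. The upper quartile of the clusters with a gene symbol was higher, at 7.43 (MP-HX) and 7.46 (vehicle) in HCT116, and 7.06 and 6.97 in HepG2. PLK4, AURKA, BUB1B and NEK2 lay below it with MP-HX in HCT116. In HepG2 PLK4, BUB1B, TTK, NEK2, MELK and PBK lay below it with MP-HX, and NEK2 with vehicle.

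**Figure D2:**
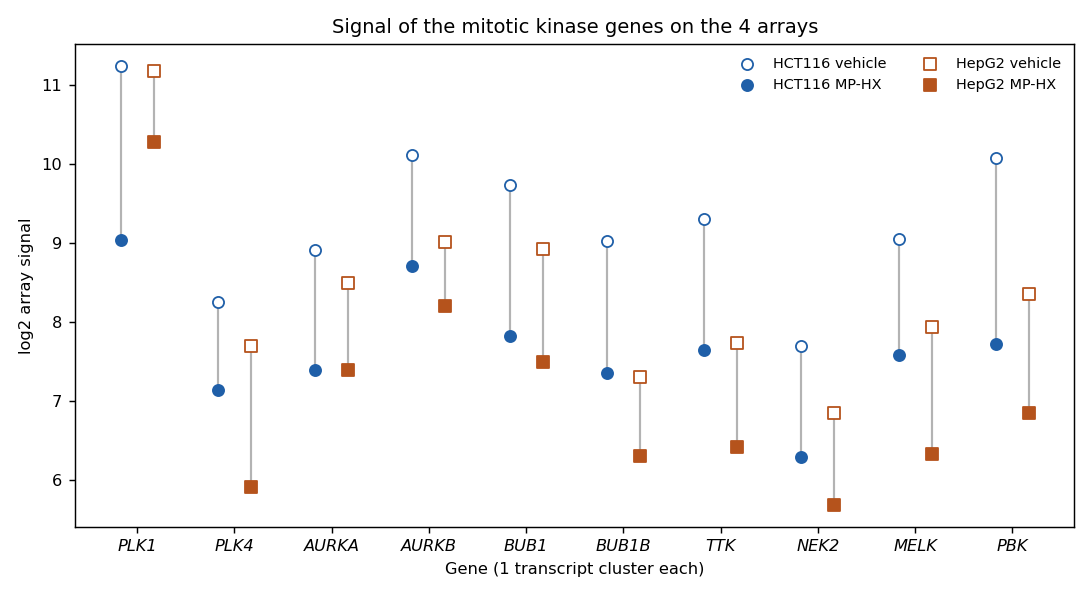
Log2 array signal (vertical axis) of the 10 mitotic kinase genes on the 4 arrays, blue circles for HCT116 and orange squares for HepG2, open for vehicle and filled for MP-HX, with a grey line joining the arrays of a line. Each symbol is 1 array of pooled RNA, and all 20 filled symbols lie below the open symbol they are joined to.

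PLK1 had a log2 signal of 11.24 with vehicle and 9.04 with MP-HX in HCT116, and of 11.18 and 10.28 in HepG2. The vehicle levels were thus 0.06 apart, whereas the MP-HX level was higher in HepG2 than in HCT116 by 1.24. After each array was centred on its median, these differences, HepG2 minus HCT116, were 0.22 and 1.60. With MP-HX the signal was 21.8% of vehicle in HCT116 and 53.6% in HepG2. The log2 difference of -2.20 in HCT116 was the 26th lowest of 16098 clusters, and that of -0.90 in HepG2, which is under 2-fold, the 444th lowest. The gap of 1.30 between the responses was the largest of the 10 genes on the arrays. The RT-qPCR of the study, run on the cultures separately, gave PLK1 as more than 2-fold lower in both lines. The RT-qPCR fold changes were several times those of the arrays in both lines, and the excess was greater in HepG2. The size of the PLK1 difference therefore depended on the method. The gap between the lines was smaller by RT-qPCR.

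PLK4 showed the opposite order. Its log2 signal was 8.25 with vehicle and 7.14 with MP-HX in HCT116, and 7.70 and 5.91 in HepG2. The log2 difference of -1.11 was the smallest of the 10 genes in HCT116, and that of -1.79 the largest in HepG2, where the signal with MP-HX was 28.9% of vehicle. The lines therefore ranked these Polo-like kinases in opposite ways. With 64 added to the linear signal, which shrinks differences of dim clusters most, PLK4 had -0.85 in HCT116 and -1.13 in HepG2, and the largest difference in HepG2 was that of BUB1 at -1.17.

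AURKA had a log2 signal of 8.91 with vehicle and 7.40 with MP-HX in HCT116, and of 8.50 and 7.40 in HepG2. Its log2 differences were -1.51 and -1.10. The levels with MP-HX were equal in the lines as deposited, but 0.36 higher in HepG2 after median centring. AURKB had 10.11 and 8.71 in HCT116, and 9.01 and 8.20 in HepG2. Its log2 differences were -1.40 in HCT116 and -0.81 in HepG2, the latter the smallest of the 10 genes in that line and under 2-fold. The signal with MP-HX was thus 35.1% (AURKA) and 37.9% (AURKB) of vehicle in HCT116, and 46.7% and 57.0% in HepG2. The array is not stated to separate AURKA from its processed pseudogenes, so their share of its signal is not known.

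BUB1 had a log2 signal of 9.73 with vehicle and 7.82 with MP-HX in HCT116, and of 8.92 and 7.49 in HepG2, which gave log2 differences of -1.91 and -1.43. BUB1B, which with MAD2 and CDC20 forms the inhibitor of the anaphase-promoting complex, had 9.02 and 7.36 in HCT116, and 7.31 and 6.31 in HepG2. Its log2 difference of -1 in HepG2 lay exactly on the threshold, as the values were deposited with 2 decimals, and was -0.94 after median centring. TTK, which phosphorylates KNL1 to recruit the BUB proteins, had 9.31 and 7.65 in HCT116, and 7.74 and 6.42 in HepG2. Its log2 difference was -1.66 in HCT116, the same as for BUB1B, and -1.32 in HepG2.

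NEK2 had a log2 signal of 7.70 with vehicle and 6.30 with MP-HX in HCT116, and of 6.85 and 5.69 in HepG2, with log2 differences of -1.40 and -1.16. MELK had 9.05 and 7.59 in HCT116, and 7.94 and 6.33 in HepG2. Its log2 differences of -1.46 and -1.61 made it, beside PLK4, the only one of the 10 genes with the larger difference in HepG2. With 64 added, MELK had -1.21 and -1.10, so that its order turned. PBK had 10.08 and 7.73 in HCT116, and 8.35 and 6.85 in HepG2. Its log2 difference of -2.35 was the largest of the 10 genes in HCT116 and the 16th lowest of all named clusters, at 19.6% of vehicle, and in HepG2 it was -1.50, or 35.4% of vehicle.

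In HCT116 5 of the 10 genes, PLK1, BUB1, BUB1B, TTK and PBK, were at least 3-fold lower, where 0.739% of clusters were. In HepG2 only PLK4 and MELK were, against 0.429% of clusters. PLK1 and AURKB lay under the 2-fold threshold in HepG2, and BUB1B, at the threshold, was the member just inside it. With 64 added to the linear signal, PLK4 and NEK2 in HCT116 and 6 genes in HepG2 were under 2-fold, which left 8 and 4, against 1.23% and 0.652% of clusters. The 4 in HepG2 were PLK4, BUB1, MELK and PBK.

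**Figure D3:**
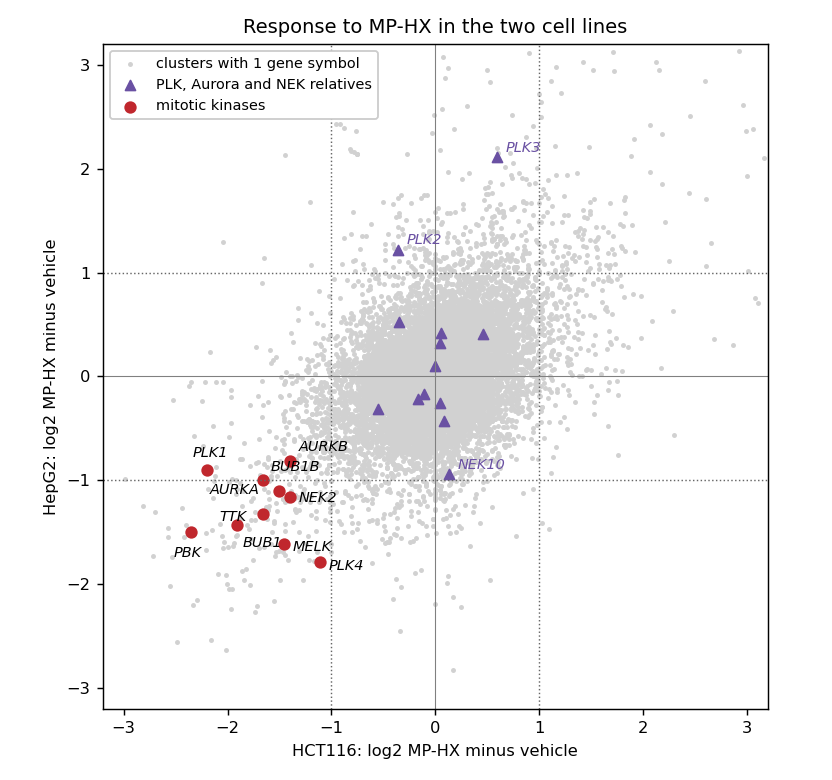
Log2 MP-HX minus vehicle in HCT116 (horizontal) and HepG2 (vertical), with 1 array per group, for the clusters with 1 gene symbol (grey, 14 of them beyond the axes), the 10 mitotic kinases (red circles) and 13 relatives of the same families (purple triangles). Dotted lines mark 2-fold, and the kinases lie between -2.35 and -1.11 in HCT116 and between -1.79 and -0.81 in HepG2, whereas PLK2 and PLK3 lie above 1 in HepG2.

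With 1 array per group, a difference within a line has no test. The effect shared by both lines was tested with limma in a model with the cell line as a block, which had 1 residual degree of freedom, and the spread in this test is the disagreement between the responses of the lines. Over the 16098 clusters 0 passed an adjusted p of 0.05 (0%), and 2040 had an unadjusted p under 0.05. None of the 10 kinases passed, with adjusted p values by limma from 0.19 to 0.28, although all 10 were among the clusters that were lower at an unadjusted p under 0.05, as were 5.86% of clusters. The mean log2 difference was -1.67 for BUB1 (standard error 0.20, limma adjusted p = 0.19), -1.54 for MELK (standard error 0.17, limma adjusted p = 0.19) and -1.30 for AURKA (standard error 0.19, limma adjusted p = 0.20). For PLK1 it was -1.55 with a standard error of 0.36, the widest of the 10 (limma adjusted p = 0.28), and for AURKB -1.10 with a standard error of 0.22 (limma adjusted p = 0.26). After quantile normalization of the 4 arrays, 7 of the 10 kinases passed, and over all clusters 131 were lower and 102 higher. The 7 were PLK4, AURKA, BUB1, TTK, NEK2, MELK and PBK, with adjusted p values of 0.027 to 0.041 by limma, while BUB1B at 0.0501, AURKB at 0.074 and PLK1 at 0.079 did not pass.

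In the vehicle arrays the signal of all 10 kinases was lower in HepG2 than in HCT116, as was that of 73.8% of clusters. The median log2 difference was -0.97, against -0.42 over all named clusters, and 5 of 10 were at least 2-fold lower, against 19.0% of clusters, while 0 were at least 2-fold higher, against 5.57%. The normalization behind the values is not stated and the array medians of the lines differ, so these differences depend on the scale. After each array was centred on its median, 9 of 10 were lower in HepG2 and 3 by at least 2-fold, and PLK1 was higher in HepG2 by 0.22. The shares of all clusters that met these rules after centring were not computed, so these counts have no background beside them. On that scale PBK had -1.45, BUB1B -1.43 and TTK -1.29, and the median of all named clusters was -0.14.

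Over the 4 arrays the kinases differed in pattern. Each gene's 4 log2 values were centred on their mean and set beside those of 11616 genes that were above the array median on at least 1 array. BUB1 lay nearest to GTSE1, which binds microtubules in mitosis, at a distance of 0.065 on the log2 scale, then to the mitotic kinesin KIF15 at 0.071 and to PSRC1 at 0.16. AURKA lay nearest to the centromere protein gene CENPQ at 0.091, the phosphatase gene CDKN3 at 0.10 and cyclin B2 (CCNB2) at 0.12. AURKB lay nearest to GAS2L3 at 0.078, the histone methyltransferase gene EZH2 at 0.079 and GEMIN5 at 0.092. No gene was as near to PLK1, for which the closest were the noncoding SNAR-H, one of a family of near-identical copies, at 0.25, TMT1B at 0.44 and MYBL2, which encodes B-MYB, at 0.50. Among the 10 kinases BUB1B and TTK were the closest pair, at 0.23, and PLK1 and TTK the furthest apart, at 2.05.

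The relatives of these kinases did not share these differences. Of 13 measured members of the PLK, Aurora and NEK families outside the 10, 0 were at least 2-fold lower in either line. As 2.91% and 2.16% of clusters were lower by this threshold, 0 of 13 is near the share of all clusters. At least 2-fold higher were 0 in HCT116 and 2 in HepG2, against 2.32% and 3.13% of clusters. Their median log2 difference was 0.04 in HCT116 and 0.10 in HepG2. PLK3, a stress-responsive Polo-like kinase, had a log2 signal of 7.71 with vehicle and 8.30 with MP-HX in HCT116, and of 6.14 and 8.25 in HepG2. Its log2 difference was thus 0.59 in HCT116 and 2.11 in HepG2. PLK2, which is induced by p53 and by stress, had -0.36 and 1.22, and in HepG2 it was under 2-fold, at 0.63, with 64 added. NEK10 had 0.13 and -0.94, with HCT116 signals below the array medians. Within the Polo-like family in HepG2, PLK1 and PLK4 were therefore below vehicle while PLK2 and PLK3 were above it.

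Among 8 other measured kinases of mitotic entry and exit, 5 in HCT116 and 4 in HepG2 were lower by 2-fold or more, with medians of -1.19 and -0.91. For this and the following lists, the shares of all clusters that were at least 2-fold lower are again 2.91% and 2.16%. CDK1, which with cyclin B starts mitosis, had -1.86 and -1.87, and the checkpoint kinase CHEK1 -1.21 and -1.21. HASPIN, which marks histone H3 for Aurora B, had -1.61 and -0.80. In HepG2 5 of the 8 were below vehicle, whereas WEE1, STK10 and SLK were above it, at 0.66, 0.69 and 0.70. In HCT116 these 3 genes had -1.32, 0.50 and -0.20. With 64 added 3 and 1 of the 8 kinases were at least 2-fold lower, against 1.23% and 0.652% of clusters, with CHEK1 at -0.96 and -0.92.

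The activators of the Aurora kinases and the chromosomal passenger complex were next examined as 1 list. Of 5 measured genes of Aurora activators and the passenger complex, 3 in HCT116 and 0 in HepG2 were lower by 2-fold or more, with medians of -1.30 and -0.57. All 5 were below vehicle in both lines, as were 27.7% of clusters. BIRC5 (survivin) had -1.78 and -0.86, CDCA8 (borealin) -1.69 and -0.95 and INCENP, the scaffold that activates Aurora B, -1.30 and -0.57. Each of these passenger genes, like AURKB, was thus at least 2-fold lower in HCT116 and under 2-fold in HepG2. So were other genes of the lists, among them PLK1, HASPIN, CDC20, FOXM1 and MYBL2. Of the remaining genes of this list, AJUBA had -0.54 and -0.37, and CEP192 -0.18 and -0.39, while TPX2 and BORA had no named cluster.

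Of 10 measured partners of PLK1 and PLK4, 7 in HCT116 and 3 in HepG2 were lower by 2-fold or more, with medians of -1.22 and -0.76. KIF20A, the kinesin that carries PLK1 to the central spindle, had -2.72 and -1.73. STIL, which activates PLK4 at the centriole, had -1.47 and -1.69. Like PLK4 and other genes of the lists, such as KNL1, STIL had the larger difference in HepG2. With 64 added STIL had -1.33 and -1.34. FBXO5 (EMI1), an inhibitor of the anaphase-promoting complex that PLK1 marks for destruction, had -1.15 and -1.49, but -0.57 and -0.59 with 64 added. KIZ, a centrosomal substrate of PLK1, was the exception in HCT116 at 1.10, or 0.59 with 64 added, and had 0.11 in HepG2.

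Of 11 measured spindle checkpoint and kinetochore partners, 9 in HCT116 and 7 in HepG2 were lower by 2-fold or more, against 2.91% and 2.16% of clusters, with medians of -1.30 and -1.60. NDC80, the microtubule-binding protein of the kinetochore, had a log2 signal of 8.65 with vehicle and 6.64 with MP-HX in HCT116, and of 7.40 and 5.40 in HepG2. MAD2L1 (MAD2) had log2 differences of -1.94 and -1.60, and KNL1, the platform on which BUB1 and BUB1B assemble, -1.54 and -1.73. BUB3, at -0.51 and -0.13, and MAD1L1, at 0.10 and -0.24, were under 2-fold in both lines. NUF2, SPC24, SPC25, ZWILCH, ZW10 and CENPE had no named cluster.

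The anaphase-promoting complex, the ubiquitin ligase that the checkpoint restrains, did not show the lower signals of most checkpoint partners, apart from its coactivator CDC20 in HCT116. Of 14 measured genes of the complex, with the E2 UBE2S and the coactivator FZR1, 0 were at least 2-fold lower in either line. The shares of all clusters were 2.91% and 2.16%, and the medians of the 14 genes were -0.26 and -0.28. CDC20, counted among the checkpoint partners, had -1.15 and -0.36, and UBE2C had no named cluster. CDC23 had -0.47 and -0.75, and the coactivator FZR1 (CDH1) 0.20 and 0.97. UBE2S, which extends ubiquitin chains with the complex, had -0.77 in HCT116 and 1.12 in HepG2, the latter 0.69 with 64 added. Of a list of phosphatases that oppose mitotic kinases and their inhibitors, only ENSA, an inhibitor of PP2A, had a named cluster, at 0.11 and 0.21.

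Of 11 measured regulators of G2 and mitosis genes, 3 in HCT116 and 1 in HepG2 were lower by 2-fold or more, with medians of -0.58 and -0.48. MYBL2 (B-MYB) had a log2 signal of 9.69 with vehicle and 7.55 with MP-HX in HCT116, and of 9.05 and 8.57 in HepG2. FOXM1, a forkhead factor that binds with it, had log2 differences of -1.57 and -0.91, and the pocket protein gene RBL1 (p107) -1.70 and -1.65. LIN37, a MuvB subunit, was the exception, at 1.00 and 1.27, or 0.85 and 0.96 with 64 added. MYBL2 and PLK1 were thus both at least 3-fold lower in HCT116 and under 2-fold lower in HepG2 on the arrays. This was not particular to them, as BIRC5, CDCA8, ZWINT, HASPIN and PRC1 of the other lists met the same rule.

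**Figure D4:**
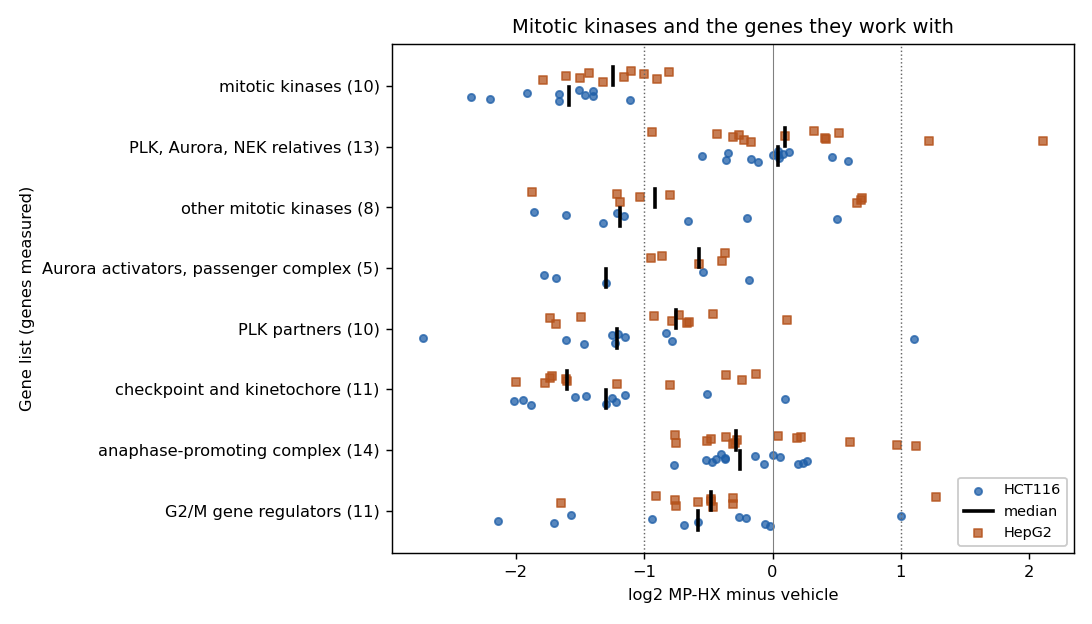
Log2 MP-HX minus vehicle (horizontal axis) of each measured gene in 8 lists, with the number of genes in parentheses, blue circles for HCT116, orange squares for HepG2 and black bars for medians; dotted lines mark 2-fold. The medians of the mitotic kinases lie at -1.58 and -1.24, and those of their PLK, Aurora and NEK relatives at 0.04 and 0.10.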

How the data were processed

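RNA of 4 groups (HCT116 and HepG2 cells, each with MP-HX or vehicle) was measured on Affymetrix Human Gene arrays, 1 array per group with RNA pooled from 3 cultures. The authors deposited log2 signal per transcript cluster with 2 decimals. Per the labels, GCOS, Affymetrix Expression Console and Transcriptome Analysis Console were used, and no source used here gives the normalization. Values were used as deposited, all 4 columns entered, and 0 columns were left out. The number of arrays limits the precision.

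A probe table named 16098 clusters with 1 gene symbol, 0 with several and left 32128 unnamed here, and all 16098 matched a RefSeq gene by ID, with 0 symbols changed. Genes without a named cluster were not analysed here. Where a gene had several clusters, the brightest was used. Differences are log2 MP-HX minus log2 vehicle, called at 2-fold. limma 3.58.1 in R 4.3.3 fitted the shared effect over all 16098 clusters with the line as a block and Benjamini-Hochberg adjustment. The fit was tried on simulated data with the same effect in both lines. That simulation left out responses that differ between the lines, which enter the spread of the real fit. Alternatives were thresholds of 1.5-fold and 3-fold, quantile normalization, median centring, 16 or 64 added to the linear signal, means over clusters, and other limma settings.

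The members, the lists and the alternatives were chosen with earlier results of these data known. Named genes were the 10 kinases, the 3 genes of every other list with the largest mean absolute difference, members at least 2-fold apart against most of their list, and the 3 genes nearest to PLK1, AURKA, AURKB and BUB1 by Euclidean distance over the 4 centred values. WEE1, STK10, SLK, BUB3, MAD1L1, CDC20, ZWINT, PRC1, AJUBA, CEP192 and the marker genes were named after their values were seen.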

Additional observations from a re-analysis of the deposited data

Results flagged for a closer look

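Of the 83 measured genes of the lists, 13 had log2 differences of opposite signs in the lines, 2 of them at 1.5-fold or more in each line. The share of all clusters that met the same rule was not computed. WEE1, the kinase that holds CDK1 inactive, had a log2 difference of -1.32 in HCT116 and 0.66 in HepG2. UBE2S had -0.77 in HCT116 and 1.12 in HepG2. With 1 array per group the difference between the lines was not tested, and the dose differed as well.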

How the results depend on the processing

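All 10 kinases stayed below vehicle in both lines under quantile normalization, median centring, 16 or 64 added to the linear signal and means over clusters. At a 3-fold threshold 5 were lower in HCT116 and 2 in HepG2, and at 1.5-fold 10 and 10, against 8.59% and 7.75% of clusters. With 64 added the HepG2 count was 4 and the HepG2 median -0.88, and 7 of the 20 single differences moved by more than the robust spread of all clusters (0.33 in HCT116, 0.34 in HepG2), which mixes noise with response. This addition shrinks dim clusters by construction. Under quantile normalization limma called 7 of the 10 kinases and 131 lower and 102 higher clusters, where 0 were called on the values as deposited, without the line block, with an intensity trend, over all clusters, over clusters above the array median and with 64 added. The prior degrees of freedom of the fit were 3.004 as deposited and 5.65 after quantile normalization, and the cause of that change was not tested. The alternatives for the other gene lists were chosen after seeing the data. The block of the limma fit pairs the arrays by line, and the labels give no replicate numbers.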
